A study of Mus musculus with 6 samples.

Results

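The genes described here encode 10 enzymes that remove superoxide and peroxides: the glutathione peroxidases Gpx1, Gpx3 and Gpx4, catalase (Cat), the superoxide dismutases Sod1, Sod2 and Sod3, and the peroxiredoxins Prdx1, Prdx4 and Prdx6. They were taken by symbol from a deposited table of 55802 genes, 1 row each, and all 10 passed the filter on low counts. Liver RNA of wild-type (WT) C57BL/6 mice was sequenced in 6 libraries, 3 from mice given oil (control) and 3 from mice given CCl4 (carbon tetrachloride), a solvent that hepatocytes turn into a reactive radical and that is used to bring about liver injury and fibrosis. The series' title presents CCl4 as the inducer of fibrosis in these mice, and neither the labels nor the design text give a dose, a duration or the animals' age. Whether each library stands for a different mouse is not stated, so the p-values speak for the variation among these 6 libraries, some of which may be technical.

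Superoxide dismutases turn superoxide into hydrogen peroxide, with Sod1 in the cytosol, Sod2 in the mitochondrial matrix and Sod3 outside the cell. Catalase breaks down hydrogen peroxide in peroxisomes, while glutathione peroxidases and peroxiredoxins reduce it, and lipid peroxides, with electrons from glutathione or thioredoxin. Hepatocytes are known for high levels of several of these enzymes.

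Gpx1, Gpx3 and Gpx4 share a feature that the choice of genes did not use: their active site holds selenocysteine, which is encoded by an in-frame TGA that elsewhere ends translation. A search of the principal coding transcripts in GENCODE M21 (GRCm38) found 1 in-frame TGA in each of these 3 genes and 0 in each of the other 7. The 33 bases around it are shown because these 3 genes went different ways in the livers. The TGA is in capitals and the coding sequence around it in lower case.
Gpx1: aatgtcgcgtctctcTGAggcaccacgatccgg
Gpx3: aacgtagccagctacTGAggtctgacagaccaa
Gpx4: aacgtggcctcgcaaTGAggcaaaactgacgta
The codon lies in exon 1 of Gpx1 (chr9:108339451-108339453, plus strand), exon 2 of Gpx3 (chr11:54907256-54907258, plus strand) and exon 3 of Gpx4 (chr10:80054737-80054739, plus strand). Among related genes, Gpx2 also has 1 in-frame TGA, and the coding sequences of Gpx5, Gpx6, Gpx7 and Gpx8 have 0.

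In the CCl4 livers 5 of the 10 genes were lower (Cat, Prdx6, Sod1, Gpx1 and Sod2) and 3 were higher (Gpx3, Sod3 and Prdx4). Gpx4 and Prdx1 did not pass the test. The 5 lower genes were reduced by 16.7 to 29.1%, and the higher ones stood at 2.94, 1.42 and 1.31 times the control level. The lower genes encode enzymes of the cytosol, mitochondria and peroxisomes. Not every gene of these compartments was lower: Prdx1 (cytosol) was not called, nor were its relatives Prdx2 (cytosol) and Prdx3 (mitochondria). Of the higher members, Gpx3 and Sod3 encode secreted enzymes and Prdx4 an enzyme of the endoplasmic reticulum. A gene was called when its Benjamini-Hochberg adjusted p over all 15579 genes tested was under 0.05 in edgeR's quasi-likelihood test. By that rule 41.3% of all genes were called, 21.2% higher and 20.1% lower. The median log2 fold change of the 10 genes was -0.15, against 0.00056 over all genes tested. The groups did not overlap for 8 of the 10 genes and for 54% of all genes. In bulk tissue, fewer cells of a type and less RNA per cell cannot be told apart.

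**Figure D1:**
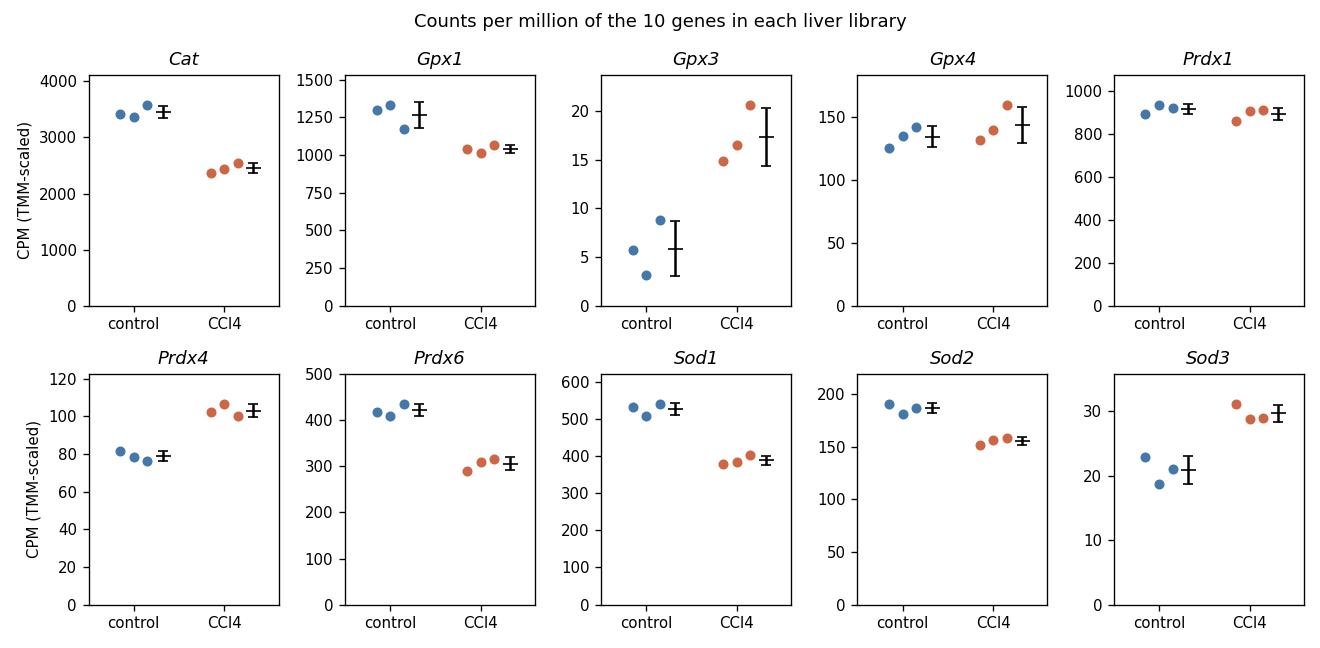
Counts per 1000000 (CPM, vertical axes from 0) of each gene in the 3 control (blue) and 3 CCl4 (orange) libraries; black bars give the mean and SD. The groups stand apart in every panel but those of Gpx4 and Prdx1, with Cat, Gpx1, Prdx6, Sod1 and Sod2 lower and Gpx3, Prdx4 and Sod3 higher in CCl4.

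The library totals ran from 18929972 to 20042731 counts. In a principal component analysis the main axis (76.3% of variance) split control from CCl4 libraries, and CCl4 replicate 3 stood off from the rest of its group along the next axis (8.39%). Without that library 5 genes were lower and 2 higher, the difference being Gpx3. Liver identity was plain from hepatocyte markers: the summed CPM of 6 of them (Alb, Apoa1, Ttr, Serpina1c, Apoc3 and Fgb) ran from 87081 to 93235 in controls and from 88748 to 94937 in CCl4 livers. Most of that sum was Alb (68448 to 75620 CPM in controls and 72303 to 75630 in CCl4 livers), and of the 6 genes 1 was called higher and 1 lower. Markers of other cells moved with the groups. The sum of 7 macrophage and monocyte genes, all called higher, went from between 161 and 208 CPM to between 578 and 650. That of 8 stellate cell and myofibroblast genes, 6 of them called higher, went from between 112 and 161 to between 814 and 847. Most of it was Col1a1, Col1a2 and Col3a1, while Tagln stayed under 1 CPM in every library. The sum of 5 biliary genes, 4 of them called higher, went from between 50.3 and 93.6 to between 252 and 333. Most of that sum was Spp1 (41.8 to 76.3 CPM in controls and 224 to 303 in CCl4 livers). The sum of 6 endothelial genes, 1 of them called lower, was between 207 and 226 CPM in all libraries. Each of these markers was detected, and their part in the results below was not tested.

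Catalase had the smallest adjusted p among the lower genes. Cat (ENSMUSG00000027187) stood at 3412, 3364 and 3580.45 CPM in control replicates 1 to 3 and at 2367, 2438 and 2542 CPM in the CCl4 replicates. All CCl4 libraries lay below all controls, and within each group the libraries differed little. The means were 3452 ± 114 and 2449 ± 88.1 CPM (SD, n = 3 each), and the log2 fold change was -0.50 (SE 0.06, adjusted p = 0.000305), a level 29.1% lower with a 95% interval of the change from -35.8 to -21.6%.

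Among the dismutases the cytosolic and mitochondrial genes were lower and the extracellular one higher. Sod1 (ENSMUSG00000022982), the copper- and zinc-containing enzyme of the cytosol, stood at 533, 509.9 and 542 CPM in controls and 379, 386 and 403 in CCl4 livers. The groups were apart, and the log2 fold change was -0.44 (SE 0.06, adjusted p = 0.00036). Sod2 (ENSMUSG00000006818), the manganese enzyme of mitochondria, stood at 191, 181 and 187 CPM against 151, 156 and 158. Its CCl4 libraries also lay below every control, by less than those of Sod1, with a log2 fold change of -0.26 (SE 0.05, adjusted p = 0.00348). Sod3 (ENSMUSG00000072941), which is secreted and binds to heparan sulfate in the matrix, stood at 22.9, 18.6 and 21.04 CPM in controls and 31.1, 28.8 and 28.9 in CCl4 livers. Every CCl4 value was above every control value (log2 fold change 0.51, SE 0.08, adjusted p = 0.00118). Sod3 is known as a product of vascular smooth muscle. The summed CPM of 4 smooth muscle markers (Myh11, Cnn1, Actg2 and Smtn) ran from 6.79 to 13.6 in controls and 14.0 to 16.1 in CCl4 livers. Of the 2 markers tested 1 was called higher. Smtn stood at 5.86, 5.46 and 4.61 CPM in controls and 8.72, 9.89 and 9.14 in CCl4 livers. Myh11 overlapped between the groups (6.55, 5.02 and 1.91 CPM against 7.16, 4.11 and 6.09). Cnn1 and Actg2 were not higher in CCl4 livers and stayed under 1 CPM in every library. The sum thus does not show a rise of all 4 markers, and their part in the change of Sod3 was not tested.

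The glutathione peroxidases went 3 ways. Gpx1 (ENSMUSG00000063856), the abundant cytosolic form, stood at 1299, 1332 and 1169 CPM in controls and 1039.7, 1011 and 1067 in CCl4 livers. Control replicate 3 lay nearest to the CCl4 libraries, and the groups did not overlap (log2 fold change -0.29, SE 0.07, adjusted p = 0.00857). Gpx3 (ENSMUSG00000018339), the form secreted into plasma, which is known mainly as a product of the kidney, stood at 5.70, 3.13 and 8.80 CPM in controls and 14.9, 16.5 and 20.6 in CCl4 livers. It rose 2.94-fold, with a 95% interval of 1.601 to 5.41 (log2 fold change 1.56, SE 0.35, adjusted p = 0.0171). Gpx3 had the widest relative spread of the 10 genes in both groups, with an SD of 48.3% of the mean in controls, and rested on the fewest reads, 58 to 166 counts per control library and 295 to 420 per CCl4 library. Its call was lost without control replicate 1 (log2 fold change 1.53, adjusted p = 0.060) or CCl4 replicate 3 (1.41, adjusted p = 0.0631), and when genes of low count were kept (1.54, adjusted p = 0.0713). Gpx4 (ENSMUSG00000075706), which reduces lipid peroxides within membranes and guards cells from ferroptosis, stood at 125, 135 and 142 CPM in controls and 131, 139.5 and 159 in CCl4 livers. The groups overlapped, and the log2 fold change was 0.10 with a 95% interval from -0.08 to 0.28 (SE 0.08, adjusted p = 0.367).

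The peroxiredoxins also differed among themselves. Prdx6 (ENSMUSG00000026701), which takes its electrons from glutathione and also has phospholipase activity, stood at 419, 410.5 and 436 CPM in controls and 290.0, 309.9 and 317 in CCl4 livers. The groups were far apart for their spread (log2 fold change -0.46, SE 0.06, adjusted p = 0.000322). Prdx4 (ENSMUSG00000025289), the peroxiredoxin of the endoplasmic reticulum, where it couples peroxide to protein folding, stood at 81.6, 78.4 and 76.3 CPM against 102, 107 and 100.2. All its CCl4 values were above all controls (log2 fold change 0.39, SE 0.05, adjusted p = 0.000433). Prdx1 (ENSMUSG00000028691), the thioredoxin-linked form of the cytosol, stood at 892, 936 and 923 CPM in controls and 860.3, 909 and 909.9 in CCl4 livers. Its groups overlapped, and its log2 fold change was -0.04 with a 95% interval from -0.17 to 0.10 (SE 0.06, adjusted p = 0.644).

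**Figure D2:**
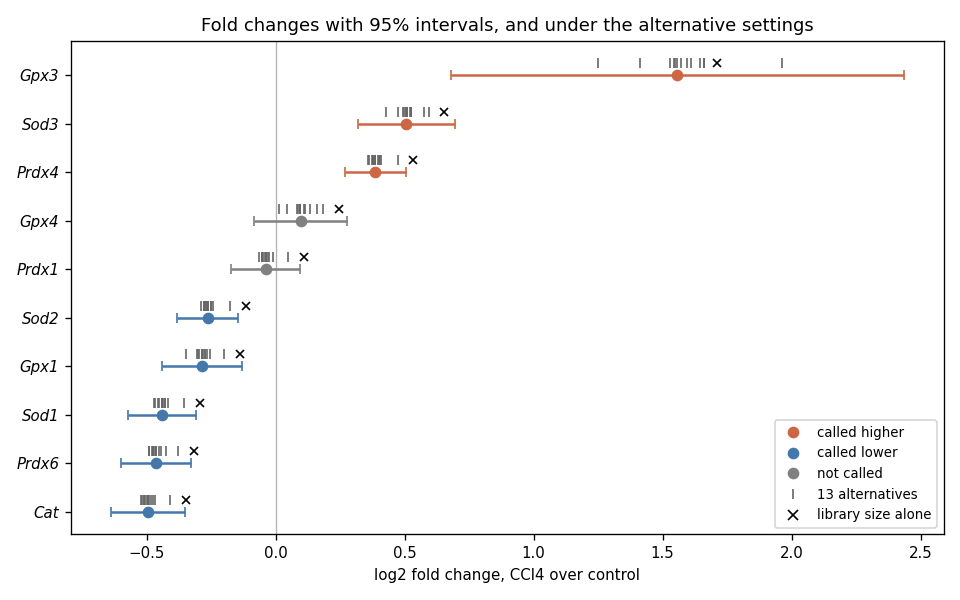
Log2 fold change, CCl4 over control, of each gene with its 95% interval (coloured points and bars: orange called higher, blue called lower, grey not called); the marks above each point are the values under the alternative settings, with a cross for scaling by library size alone. Gpx3 has the widest interval, and library size alone moves every gene toward higher values.

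Scaling between libraries bore on the smaller changes. With library size alone the median of all genes moved from 0.00056 to 0.15 on the log2 scale, and Gpx1 (-0.14, adjusted p = 0.157) and Sod2 (-0.12, adjusted p = 0.132) lost their calls. Prdx1 changed sign under that scaling (0.11) and under upper quartile scaling (0.05), without a call. Set against the median of all genes under that same scaling, Gpx1 stood at -0.29, Sod2 at -0.26 and Prdx1 at -0.04. Since a change of scaling moves all genes by nearly the same amount, these values restate the main test and add no support. Cat, Sod1 and Prdx6 were called lower, and Sod3 and Prdx4 higher, in all 14 alternatives.

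Ratios of 2 genes within a library do not depend on that scaling. For 6 pairs, chosen after the values were seen, the count of one gene was divided by that of the other and set to a mean of 1 in controls. The ratio of Sod3 to Sod1 was 1.09, 0.93 and 0.98 in controls and 2.08, 1.89 and 1.82 in CCl4 livers. That of Gpx3 to Gpx1 was 0.92, 0.49 and 1.58 against 3.01, 3.43 and 4.07. Relative to the cytosolic gene, the extracellular one was thus higher in each CCl4 library than in any control. The ratio of Prdx4 to Prdx1 was 1.34 ± 0.05 and that of Prdx6 to Prdx1 0.74 ± 0.01 in CCl4 livers (SD, n = 3), against control SDs of 0.06 and 0.04. Gpx4 relative to Gpx1 stood at 1.30 ± 0.11 in CCl4 livers against a control SD of 0.12, and Sod2 relative to Sod1 at 1.13 ± 0.02 against a control SD of 0.02. The groups were apart for all 6 ratios. The exact two-sided permutation test gave p = 0.1 for each (0.1 after Benjamini-Hochberg adjustment over the 6), the smallest it can give with 3 libraries against 3.

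**Figure D3:**
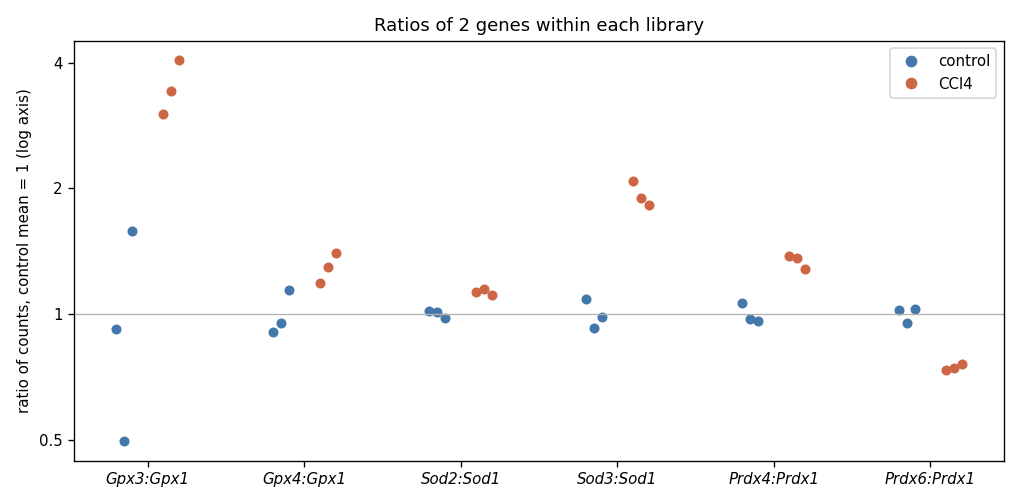
Ratio of the counts of 2 genes in each library (vertical axis, log scale, control mean set to 1) for 6 pairs; blue points are controls and orange points CCl4 livers. The CCl4 points lie above the controls for every pair but Prdx6 to Prdx1, where they lie below.

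Levels of different genes were compared per kilobase of the longest principal transcript in GENCODE M21. In controls the order of these levels was Cat (1321 ± 43.5 CPM per kilobase, SD, n = 3), Gpx1 (1182 ± 80.2), Sod1 (824 ± 25.9), Prdx1 (399.7 ± 9.71), Prdx6 (177 ± 5.53), Gpx4 (139.8 ± 8.76), Prdx4 (79.6 ± 2.68), Sod2 (31.8 ± 0.806), Sod3 (5.58 ± 0.570) and Gpx3 (3.69 ± 1.78). Only Sod3 and Gpx3 overlapped with their neighbour in this order. In CCl4 livers Cat (937 ± 33.7) and Gpx1 (969 ± 26.2) overlapped, Gpx4 (149.5 ± 14.99) stood above Prdx6 (128 ± 5.87), and Gpx3 (10.9 ± 1.87) above Sod3 (7.93 ± 0.35). With the length of all annotated exons in place of the principal transcript, Cat stayed above Gpx1 in both groups and Prdx1 stood above Sod1, while Gpx3 and Sod3 overlapped in CCl4 livers and were apart in controls, so the order depends on the transcript assumed. The 10 genes together made up 0.664 to 0.667% of all counts in control libraries and 0.552, 0.576 and 0.614% in CCl4 replicates 1 to 3, most of it from Cat and Gpx1.

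Of 10 other genes of these families (Gpx2, Gpx5, Gpx6, Gpx7, Gpx8, Prdx2, Prdx3, Prdx5, Prdx6b and the copper chaperone gene Ccs), 7 passed the filter. Their median log2 fold change was 0.09, and 2 were higher and 3 lower, where 21.2% of all genes tested were higher and 20.1% lower. Gpx7 and Gpx8, peroxidases of the endoplasmic reticulum without selenocysteine, were higher. Gpx7 stood at 2.24, 1.62 and 1.64 CPM in controls and 5.49, 5.49 and 5.60 in CCl4 livers (log2 fold change 1.59, SE 0.17, adjusted p = 0.000111). Gpx8 stood at 1.33, 0.70 and 1.64 CPM against 2.37, 2.82 and 3.59 (1.25, SE 0.30, adjusted p = 0.00826). Ccs, whose protein loads copper into Sod1, averaged 144 ± 2.53 CPM in controls and 115 ± 7.36 after CCl4 (-0.33 on the log2 scale, SE 0.06, adjusted p = 0.00197), next to the lower Sod1. Prdx5, found in mitochondria, peroxisomes and cytosol, was lower (-0.28, SE 0.06, adjusted p = 0.00399). Neither Ccs nor Prdx5 passed with library size alone (adjusted p = 0.0561 and 0.107). Gpx6, with 1.21 ± 0.174 CPM in controls against 0.197 ± 0.147, was also lower (-2.57, SE 0.45, adjusted p = 0.00154), at a very low level. Its control libraries alone carried it past the filter on low counts, which favours a lower call. With a stricter filter Gpx6 was not tested, and 2 relatives were lower. It stood at -3.21 without CCl4 replicate 3 (adjusted p = 0.000439) and at -2.13 without CCl4 replicate 1 (adjusted p = 0.00448). Prdx3, the mitochondrial peroxiredoxin, stood at 121 ± 5.59 and 130.4 ± 13.8 CPM and Prdx2, a cytosolic form abundant in red blood cells, at 87.8 ± 3.31 and 93.7 ± 3.26 CPM. Neither was called (adjusted p = 0.301 and 0.198), though both were with library size alone (0.26, adjusted p = 0.0415, and 0.24, adjusted p = 0.0095). Prdx2 was also called with upper quartile scaling (0.18, adjusted p = 0.0219). Red blood cell markers differed between the groups: 4 of 5 were called higher and Alas2 lower, and their part in these values was not tested.

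Glutathione peroxidases draw their electrons from glutathione. Of 15 genes of glutathione synthesis and recycling, 14 were tested, 5 were higher and 5 lower (median 0.08), beside 21.2% higher and 20.1% lower among all genes tested. Gclc, the catalytic subunit of the rate-limiting enzyme of glutathione synthesis, stood at 521, 535 and 570.5 CPM in controls and 314, 332 and 351 in CCl4 livers (log2 fold change -0.71, SE 0.07, adjusted p = 5.31e-05). Gsr, which regenerates reduced glutathione, was lower as well (-0.32, SE 0.06, adjusted p = 0.00166), as was Cbs, which feeds cysteine synthesis (-0.41, SE 0.08, adjusted p = 0.002). Slc7a11, the cystine importer, was at 0.516 ± 0.251 CPM in controls and 2.82 ± 0.351 after CCl4 (2.43, SE 0.31, adjusted p = 0.000285). Its CCl4 libraries carried it past the filter on low counts, which favours a higher call. Pgd, an enzyme of the pentose phosphate pathway that makes NADPH, rose by 0.67 (SE 0.07, adjusted p = 9.35e-05).

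The thioredoxin system reduces most peroxiredoxins. Of 12 of its genes, 3 were higher and 2 lower (median -0.04), beside 21.2% and 20.1% of all genes tested. Srxn1, sulfiredoxin, which repairs overoxidised peroxiredoxins, stood at 44.2, 45.9 and 41.3 CPM in controls and 66.5, 69.7 and 73.6 in CCl4 livers (log2 fold change 0.68, SE 0.06, adjusted p = 4.87e-05). Txndc12, a thioredoxin-like protein of the endoplasmic reticulum, rose by 0.34 (SE 0.06, adjusted p = 0.00126). Txnrd3 (-0.86, SE 0.18, adjusted p = 0.00503), a thioredoxin reductase, and Txnip (-0.33, SE 0.08, adjusted p = 0.0070), which binds thioredoxin, were lower. Txnip did not pass with library size alone (adjusted p = 0.104). The main cytosolic reductase, Txnrd1, stood at 170.2 ± 4.85 and 167 ± 1.21 CPM (log2 fold change -0.03, adjusted p = 0.682). Its sign changed with upper quartile scaling (0.06) and library size alone (0.12), without a call.

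Of 13 genes of selenoprotein synthesis and selenium transport, 2 were higher and 4 lower (median -0.15). Over all genes tested the shares were 21.2% higher and 20.1% lower. Sepsecs, which makes selenocysteine on its transfer RNA, averaged 92.6 ± 3.10 CPM in controls and 65.1 ± 5.54 after CCl4 (-0.51 on the log2 scale, SE 0.07, adjusted p = 0.000352). Secisbp2, which binds the RNA element needed to read TGA as selenocysteine, was lower by the same test (-0.48, SE 0.08, adjusted p = 0.00141). Selenop, the plasma carrier of selenium made by the liver, stood at 4860, 4824 and 4633 CPM in controls and 5916, 5549 and 5582 in CCl4 livers (0.25, SE 0.06, adjusted p = 0.011). Without control replicate 3 the Selenop call was lost (log2 fold change 0.23, adjusted p = 0.0574), which left 1 gene of this list higher. Selenof, a selenoprotein of the endoplasmic reticulum, rose by 0.37 (SE 0.06, adjusted p = 0.00135).

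Catalase shares its organelle with oxidases that make hydrogen peroxide. Of 19 genes of peroxisomal oxidases and protein import, 18 were tested. Of these, 8 were lower and 0 higher (median -0.18), against 20.1% lower and 21.2% higher among all genes tested. Hao1, glycolate oxidase, stood at 319, 302 and 339 CPM in controls and 210.2, 238 and 192 in CCl4 livers (log2 fold change -0.58, SE 0.08, adjusted p = 0.000556). The number of lower genes was 5 without CCl4 replicate 1 or CCl4 replicate 2, and 3 with upper quartile scaling or library size alone. Hao2 stood apart: its control libraries held 0.213, 0 and 0.318 CPM and its CCl4 libraries 1.21, 1.83 and 24.0, so that 1 library, CCl4 replicate 3, set its mean, and it was not called (adjusted p = 0.106). Without that library Hao2 was called higher, at a log2 fold change of 3.05 (adjusted p = 0.00189), the 1 higher gene of the list in that setting. The CCl4 libraries alone carried Hao2 past the filter on low counts, which favours a higher call.

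Among sources of superoxide and hydrogen peroxide outside the peroxisome, 13 of 16 genes were tested. Of these, 6 were higher and 4 lower (median -0.07), where 21.2% of all genes tested were higher and 20.1% lower. The higher genes include Cybb, the catalytic subunit of the phagocyte NADPH oxidase, which was at 18.4 ± 1.56 CPM in controls and 51.3 ± 4.17 after CCl4 (a log2 fold change of 1.48, SE 0.08, adjusted p = 4.00e-06). The macrophage markers were higher in the same libraries, and their part was not tested. The aldehyde oxidase genes Aox3 (-1.63, SE 0.07, adjusted p = 1.05e-06) and Aox1 (-0.78, SE 0.08, adjusted p = 7.08e-05) were lower.

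Of 10 regulators of antioxidant genes, 1 was higher and 6 lower (median -0.36), where 21.2% of all genes tested were higher and 20.1% lower. The higher one was Nfe2l2, which encodes NRF2, the factor that binds antioxidant response elements, with 79.4, 80.2 and 81.7 CPM in the control libraries against 95.5, 104 and 106 (log2 fold change 0.34, SE 0.06, adjusted p = 0.00118). Mafg, a partner of NRF2 on DNA, was lower (-0.38, SE 0.06, adjusted p = 0.00104), as was Foxo1, a factor known to act on Sod2 and Cat (-0.42, SE 0.07, adjusted p = 0.00154). The list mixes activators and repressors of antioxidant genes, so its counts and median give no single direction of regulation.

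**Figure D4:**
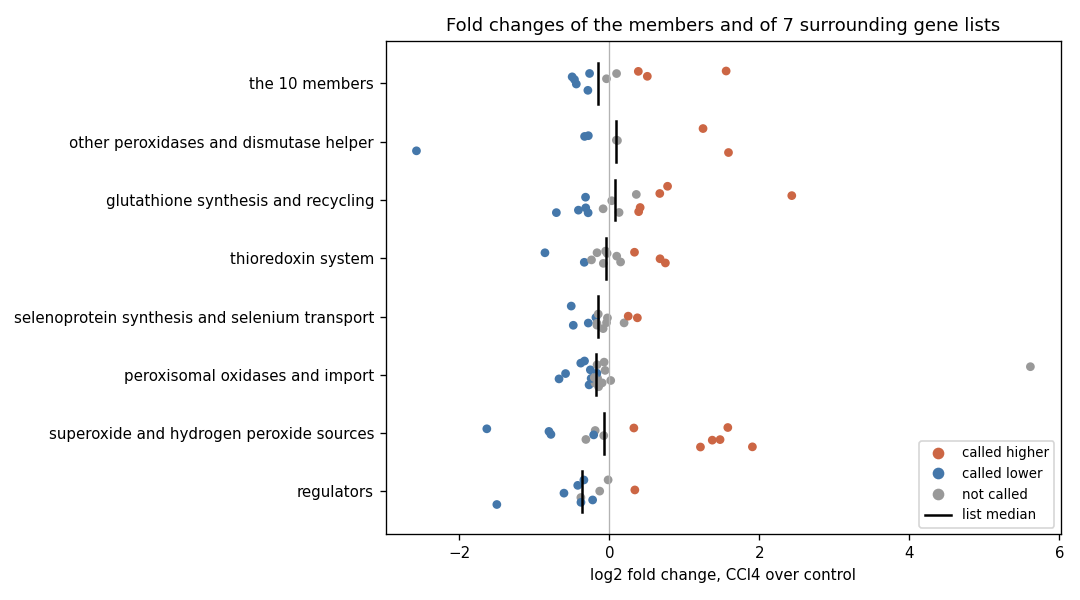
Log2 fold change, CCl4 over control (horizontal axis), of the 10 genes and of the tested genes of 7 surrounding lists, with points coloured by call and a black line at each list's median. Higher and lower genes stand side by side in most lists, the peroxisomal list has lower calls only, and its grey point at 5.61 is Hao2, which 1 library raised.

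The start of 8 of the 10 genes is in the RefSeq promoter windows (GRCm38.p6, 250 bases before to 50 after the start), with several windows for Gpx4. Sod3 and Prdx6 are not in that table. The windows were searched on both strands for the core of the antioxidant response element, TGANNNNGC, since Nfe2l2 was higher. It was found in Prdx1 and Sod1 and in 41.3% of all 32851 windows. The stricter TGACNNNGC, which every time overlaps the looser form, was found in the same 2 genes and in 12.4% of all windows. Prdx1 and Sod1 are printed because they hold the match and differed in the livers, Sod1 being lower and Prdx1 not called. Capitals mark matches to TGANNNNGC, each read on the strand opposite to the gene.
Prdx1 (chr4:116685349-116685648, plus strand): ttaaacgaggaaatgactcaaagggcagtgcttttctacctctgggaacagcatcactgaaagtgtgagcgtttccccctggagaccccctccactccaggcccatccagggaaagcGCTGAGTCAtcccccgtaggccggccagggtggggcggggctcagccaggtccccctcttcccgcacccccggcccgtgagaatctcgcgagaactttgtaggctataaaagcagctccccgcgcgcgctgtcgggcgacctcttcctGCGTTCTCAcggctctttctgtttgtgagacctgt
Sod1 (chr16:90220512-90220811, plus strand): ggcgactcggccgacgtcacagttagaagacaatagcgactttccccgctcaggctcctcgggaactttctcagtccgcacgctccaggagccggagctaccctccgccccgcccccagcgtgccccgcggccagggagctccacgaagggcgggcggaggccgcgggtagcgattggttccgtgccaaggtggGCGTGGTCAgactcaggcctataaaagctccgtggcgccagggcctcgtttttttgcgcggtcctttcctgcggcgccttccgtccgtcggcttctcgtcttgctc
The match GCTGAGTCA of Prdx1 begins 133 bases before the start (position -133) and the match GCGTGGTCA of Sod1 at position -56. Both windows also hold TATAAA, found in 13.6% of all windows and in no other of the 8 genes. The GC box GGGCGG was found in all 8, with at least 1 window of each gene, and in 35.7% of all windows. The first is a count of genes, with several windows for Gpx4, and the second a share of windows, so they are not alike. G and C made up 47.0 to 68.3% of the windows of the 8 genes, against a median of 52.7% over all windows. Only the window of Gpx1 lay below that median. Such matches describe the letters of these windows and do not show binding.

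By the likeness of their pattern over the 6 libraries, the genes nearest to Cat were Vwa8, Cmtm4 and Hibadh. The measure was the root mean square difference of log2 CPM, each gene centred on its own mean, among 8323 genes with a mean of at least 10 CPM, and it was 0.011, 0.015 and 0.020. Their log2 fold changes were -0.49, -0.48 and -0.50. Nearest to Prdx4 were Cdkn2aipnl, Apof and Capzb (0.016, 0.018 and 0.019), with log2 fold changes of 0.41, 0.35 and 0.39. With 2 groups of 3 libraries, such likeness mostly reflects a similar difference between the groups.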

How the data were processed

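Liver RNA libraries (messenger RNA, SMARTER kit, per the labels' protocols) were trimmed and aligned with HISAT2, per the series' design text, and counted with featureCounts, per the submitters' processing notes. Not given in the sources used here are the versions, build, annotation, strand setting and handling of multi-mapping reads. The authors deposited whole-number counts for each gene without normalization, and intervals cover the spread between libraries. Reads could be shared with pseudogenes (GENCODE M21 lists Gpx4-ps2 and Prdx6-ps2), so values of Gpx4 and Prdx6 are uncertain to that extent. Scaf4 overlaps Sod1 on the opposite strand, with no shared exon.

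Symbols came from GENCODE M21 by Ensembl identifier (52083 of 55359 matched). The 443 other rows hold 0.543 to 0.679% of counts. They have no symbol and entered library sizes and tests as rows of their own. The test was edgeR's (4.0.16, under R 4.3.3): filterByExpr, TMM, glmQLFit (robust) and glmQLFTest, control against CCl4, with Benjamini-Hochberg adjustment over 15579 genes. CPM are counts per 1000000 of TMM-scaled library size. SE is the log2 fold change over the square root of F. Alternatives were other scalings and filters, DESeq2 1.42.0, limma-voom (limma 3.58.1), a replicate block and each library left out. The 10 genes and the lists were chosen with earlier results of these data known. Named are the 10 genes, all tested relatives, and per list the 2 called genes of smallest adjusted p in each direction and the gene of highest mean CPM; Hao2 was named after its values were seen, and some genes that the rule took are not reported here. Nearest genes are the 3 of smallest root mean square difference to the member of smallest adjusted p in each direction.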

Additional observations from a re-analysis of the deposited data

How the results depend on the processing

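Of 140 values of the 10 genes under 14 alternatives, 133 kept their direction and their side of the threshold. With library size alone Gpx1 (-0.14) and Sod2 (-0.12) lost their calls, Prdx1 turned to 0.11, 3 members were lower and 1676 of all genes were lower (3124 in the main test; the higher genes went from 3303 to 4824). Upper quartile scaling gave 0.0485 for Prdx1 and 4103 higher and 2177 lower genes. The median of all genes was 0.15 and 0.09 under these scalings. With no filter Gpx3 stood at 1.54 without a call, where 30025 genes were tested. With library size alone the relatives had 4 higher and 1 lower, glutathione genes 3 lower, the thioredoxin system 5 higher and 1 lower, selenoprotein genes 2 lower, and peroxisomal genes 1 higher and 3 lower. Upper quartile scaling gave 5 higher thioredoxin genes and 3 lower peroxisomal genes, and no filter gave 4 lower thioredoxin genes. Txnrd1 turned to 0.0567 with upper quartile scaling and 0.12 with library size alone, without a call. The cause of the other moves was not tested.

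Leaving out each library in turn gave 2 to 3 higher members and 5 lower ones. Gpx3 ranged from 1.25 to 1.96, with its call lost at 1.53 and 1.41. The lower peroxisomal genes ranged from 5 to 11 and the higher ones from 0 to 1, and the higher selenoprotein genes from 1 to 3. Replicate numbers recur in both groups, and they are not stated to pair the libraries. Same-numbered libraries deviated together only weakly (correlations 0.04, -0.0015 and 0.05). Control replicates 1 and 3 were closest to the CCl4 replicate of the same number, and control replicate 2 to CCl4 replicate 1. Such values cannot decide whether the numbers pair the libraries. With the replicate block 3298 genes were higher and 3118 lower, 3 members were higher and 5 lower, and 1 peroxisomal gene, Hao2, was higher. Of 29 other named genes, 21 kept direction and side of the threshold in every alternative that tested them. Depth limits genes of few counts, such as Hao2 (0.177 CPM in controls), Slc7a11 (0.516) and Gpx7 (1.83).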
